A study of Mus musculus with 14 samples.

Results

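The collagen chains of mouse EpdSCs (stem cells that sit in the epidermis between hair follicles) were followed over a time course of SOX9 induction. The chains were all rows of the deposited TPM table whose symbol is Col, a number, the letter a and a number, which gave 44 genes of 54332. Of these, 8 formed the epithelial side (the 6 type IV chains, *Col7a1* and *Col17a1*) and the other 36 formed the stromal side. The split follows collagen type alone, and the stromal side therefore holds types XVI, XVIII and XXIII, which epithelia also make.

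Collagens are trimers of chains that share a repeating triple helix, and they differ in where they sit. In skin, basal keratinocytes lie on a basement membrane whose sheet is a type IV collagen network. They are held to it by hemidesmosomes, in which collagen XVII spans the cell membrane and binds integrin and laminin, while collagen VII forms the anchoring fibrils that tie the sheet to the dermis. The fibrillar collagens of the dermis, types I, III and V, are made mainly by fibroblasts, and types II, IX and XI are best known from cartilage.

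RNA was analysed in 10 libraries of sorted cells of CD1 mice that carried K14rtTA, an activator driven by a keratin 14 promoter, and TRE-myc-Sox9, the transgene it switches on when doxycycline (DOX) is given. Each of 5 timepoints had 2 libraries: D0 at postnatal day 21, before DOX took effect, then W1 (day 28), W2 (day 35) and W6 (day 63) on DOX, and W12, from transgenic skin that had been grafted onto female Nude hosts. All 10 libraries were labelled male and passed one gate from back skin, negative for CD31, CD45, CD117, CD140a and CD34, high for CD49f and Ly6A. Age rose with time on DOX, and at W12 an effect of grafting and one of 12 weeks of SOX9 cannot be told apart. Values are TPM, transcript abundances scaled to a fixed total per library, which are per length and can be compared between chains. They carry no depth, so the depth of each library is unknown and no smallest detectable level can be given. The labels call the replicates biological, and *P* values measure the spread between such libraries.

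The basal keratinocyte markers *Krt14* (19997 to 37666 TPM) and *Krt5* (7343 to 14774 TPM) were high in all 10 libraries. They belong to a list of 10 basal markers, of which 6 were lower (25.1% of all genes) and 2 higher (17.9%) at W12 against D0. *Krt5* was among the lower ones. The transgene, listed as MYC-SOX9, rose from 89.6 and 45.6 TPM at D0 to between 606 and 3414 TPM in the 8 later libraries. D0 replicate 2 went against its label, since its *Xist* level was 4.61 TPM while *Ddx3y*, a gene of the Y chromosome, was listed at 0.0278 TPM, and the changes that rest on it are given with and without it. The W12 libraries held both *Xist* (5.51 and 3.50 TPM) and *Ddx3y* (10.97 and 12.9 TPM). Replicates correlated across genes with *r* of 0.958 to 0.988. The fibroblast markers *Pdgfra*, *Pdgfrb*, *Lum*, *Dpt* and *Mfap4* were listed at no more than 0.188 TPM in any library. The summed level of 9 endothelial markers was 1.41 to 6.28 TPM in the 8 libraries up to W6 but 112 and 258 TPM at W12, although the gate removes CD31+ cells. Beside them, 10 immune markers summed to 2.52 to 6.07 TPM, 7 melanocyte markers to 1.34 to 6.38 TPM in 7 libraries but 12.1 TPM in W6 replicate 2 and 13.4 and 11.8 TPM at W12, 5 Schwann cell markers to 0.206 to 2.56 TPM with the highest value in W6 replicate 2, and 7 mural markers to 9.998 to 43.4 TPM. The 20 genes of the fibroblast list, several of which keratinocytes also express, summed to 414 to 804 TPM. Of these, 10 were tested, and 5 were higher (17.9% of all genes) and 2 lower (25.1%) at W12 against D0. Fewer of them, and fewer of all genes, were called without D0 replicate 2. *Vim* was listed at 0.694 and 0.975 TPM at D0 and 53.5 and 104 TPM at W12. At W12 *Fstl1* was at 8.99 and 15.2 TPM, *Fbln2* at 12.1 and 23.8 TPM and *Dcn* at 13.2 and 27.2 TPM, of which *Dcn* was not called against D0 (adjusted *P* = 0.0566) and *Fstl1* passed the filter on low values (a mean of 1 TPM over the 10 libraries) only through W12. The part of RNA from other cell types in the W12 values was not tested.

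The filter for testing was an average of 1 TPM or more, which 13110 genes of the table passed. These were tested with limma on log2(TPM + 1), and a gene was called where its *P*, adjusted over that whole set, was under 0.05. Of the 44 chains, 13 passed this filter, 6 of the 8 epithelial and 7 of the 36 stromal chains. A chain that reached 1 TPM only through the timepoints where it was high had to differ, so the counts below describe these 13 and not all collagens. Each call was set against 20 alternatives, 10 with another setting of the fit and 10 with 1 library left out. Log2 changes are on the log2(TPM + 1) scale, which understates the change of low genes.

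Collagen RNA of these cells was dominated by *Col17a1* before induction, and its total fell late. The 44 chains summed to 1071 and 1589 TPM at D0, to 1245 and 1126 TPM at W1, to 1104 and 984 TPM at W2, to 453 and 586 TPM at W6 and to 411 and 555 TPM at W12. Thus both W6 and both W12 libraries lay below every earlier library. The epithelial chains made up 74.7% and 75.9% of this sum at D0, 76.5% and 77.1% at W1 and 71.2% and 74.7% at W2. They held 57.8% and 62.5% at W6 and 63.6% and 61.0% at W12. The share of the epithelial side was therefore lower in all 4 late libraries than in all 6 early ones, as a description without a test. With types XVIII and XXIII counted as epithelial, the mean share was 87.0% at D0 and 83.5% at W1, then 78.9% at W2, 71.6% at W6 and 77.6% in the W12 grafts. The late and early libraries then overlapped, with 77.9% in W12 replicate 2 and 77.4% in W2 replicate 1. In bulk RNA such as this, fewer cells that express a chain and less RNA per cell cannot be told apart.

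**Figure D1:**
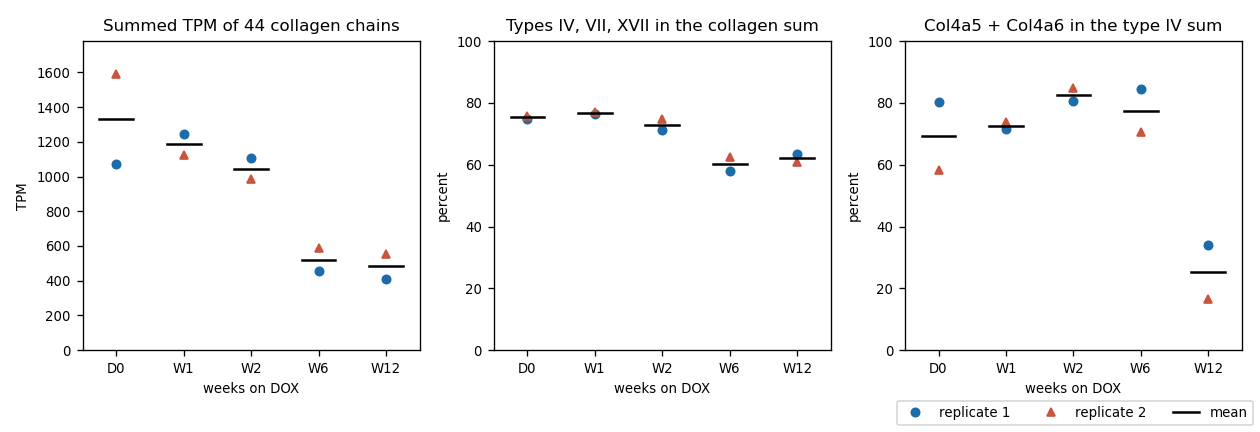
Summed TPM of the 44 collagen chains (left), percent of that sum from types IV, VII and XVII (middle) and percent of the type IV sum from *Col4a5* and *Col4a6* (right), by weeks on DOX. Circles and triangles are the 2 replicates and bars their mean. The sum is 411 to 586 TPM in the W6 and W12 libraries against 984 to 1589 TPM before. The right panel drops to 33.9% and 16.4% at W12, where the part of endothelial RNA was not tested.

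More of the 13 chains were called at W6 and W12 than at W1 and W2. At W1, 3 of the 13 were higher than at D0, against 5.79% of all genes tested, and 1 was lower (4.1% of all genes). At W2, 3 were higher (9.06% of all genes) and 1 lower (6.64%). At W6, 2 were higher (18.3%) and 9 lower (14.1%), and at W12, 2 were higher (17.9%) and 7 lower (25.1%). Among these 13 chains the share that was lower was above that of all genes tested at W6 and W12. *Col9a3*, which passed the filter only through the libraries after DOX, is among the higher chains at each of these timepoints. The counts of higher chains are therefore not read against the share of all genes. With all genes above 0 TPM tested, which takes in all 44 chains, 4 chains were higher (4.79% of all genes) and 4 lower (3.17%) at W6. At W12, 7 were higher (6.81%) and 6 lower (6.75%), so that calls went in both directions in near equal number. Some of these calls were of chains near 0 TPM, such as *Col6a4* and *Col6a5*. A chain listed at 0 at D0 could only be called higher. From W2 to W6, 4 chains were lower (8.31% of all genes) and 0 higher (7.99%). Of the 13 chains, 7 had an unadjusted *P* under 0.05 in that step. From W6 to W12, 2 were higher (6.66%) and 2 lower (13.5%). The *F* test over the timepoints called 12 of the 13 chains, where it called 57.5% of all genes, and *Col12a1* was the exception. The comparisons with D0 share the D0 libraries.

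The median log2 change of the 13 chains against D0 was 0.43 after 1 week, −0.34 after 2 weeks, −1.68 after 6 weeks and −1.19 in the grafts, where the median of all genes tested was 0.09, 0.06, 0.08 and −0.08. At W6, all 6 tested epithelial chains and 3 of the 7 stromal ones were lower, with medians of −2.25 and −0.94. At W12 the corresponding numbers were 4 of 6 and 3 of 7, with medians of −1.48 and −0.74. No test of the difference between the sides was made. Without D0 replicate 2, fewer chains and fewer of all genes were called at W6 and W12, and no called change of a chain reversed its sign. At W6 the change was then −1.77 for *Col4a1*, −1.53 for *Col4a2*, −1.03 for *Col6a1* and −0.82 for *Col23a1*, all smaller than with it. For *Col18a1* it was −1.24, which is larger than with it.

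**Figure D2:**
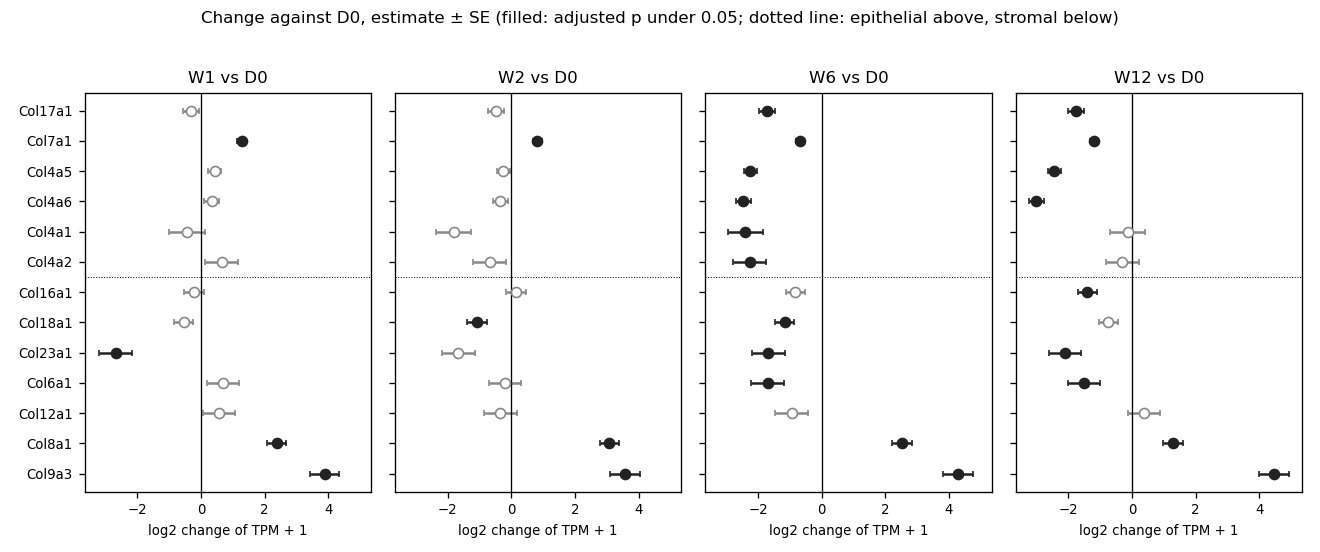
Log2 change of TPM + 1 of the 13 tested chains at W1, W2, W6 and W12 against D0, as estimate and SE from limma over all 10 libraries. Filled points have an adjusted *P* under 0.05, with the 6 epithelial chains above the dotted line. All 6 of them lie below 0 at W6, while *Col8a1* and *Col9a3* lie above 0 in every panel.

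*Col17a1*, the transmembrane collagen of the hemidesmosome, was the most abundant collagen chain at every timepoint. It was listed at 686 and 1083 TPM at D0, 729.6 and 650.4 TPM at W1, 630.5 and 599.6 TPM at W2, 217 and 320.2 TPM at W6 and 224 and 283 TPM at W12. The 6 libraries up to W2 all lay above the 4 later ones, and the W6 and W12 values overlapped. The log2 change against D0 was −1.70 ± 0.25 (SE, adjusted *P* = 0.00178) at W6 and −1.77 ± 0.25 (SE, adjusted *P* = 0.000951) at W12, and −1.22 ± 0.25 (SE, adjusted *P* = 0.0181) from W2 to W6. The changes at W1 and W2 were not called (adjusted *P* = 0.471 and 0.227). The call from W2 to W6 was lost without W2 replicate 1 (adjusted *P* = 0.12), W2 replicate 2 (0.0968) or W6 replicate 1 (0.0534), and with all genes above 0 TPM tested (0.0746).

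*Col7a1*, which encodes the chain of the anchoring fibrils, first rose and then fell below its start. It was listed at 64.2 and 57.1 TPM at D0, 144 and 153 TPM at W1, 114 and 102 TPM at W2, 38.6 and 36.1 TPM at W6 and 24.4 and 27.5 TPM at W12. The 2 replicates lay close together throughout, and no 2 timepoints overlapped. The log2 change against D0 was 1.28 ± 0.14 (SE, adjusted *P* = 0.00106) at W1 and 0.82 ± 0.14 (SE, adjusted *P* = 0.00548) at W2. It turned to −0.68 ± 0.14 (SE, adjusted *P* = 0.00704) at W6 and −1.19 ± 0.14 (SE, adjusted *P* = 0.000332) at W12. The step from W2 to W6 was −1.501 ± 0.14 (SE, adjusted *P* = 0.00131) and that from W6 to W12 −0.51 ± 0.14 (SE, adjusted *P* = 0.0335). The W2 call was lost without W2 replicate 1 (0.74, adjusted *P* = 0.0653), and the W6 call in the fit of only the 4 libraries compared (adjusted *P* = 0.104). The last step was the least firm: it was called in 8 of 20 alternatives, was lost without any 1 of the libraries of W1, W2 and W12 or W6 replicate 1, and median-ratio scaling gave −0.34 (adjusted *P* = 0.108).

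The ratio of *Col17a1* to *Col7a1* TPM was 10.7 and 19.0 at D0, 4.25 to 5.89 in the 4 libraries of W1 and W2, 5.63 and 8.87 at W6, and 9.18 and 10.3 at W12. The ratio was thus below both D0 libraries in all 8 libraries after DOX, and lowest in those of W1, W2 and W6 replicate 1. At W12 it was close to the 10.7 of D0 replicate 1, and the 19.0 is from D0 replicate 2, which went against its label.

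**Figure D3:**
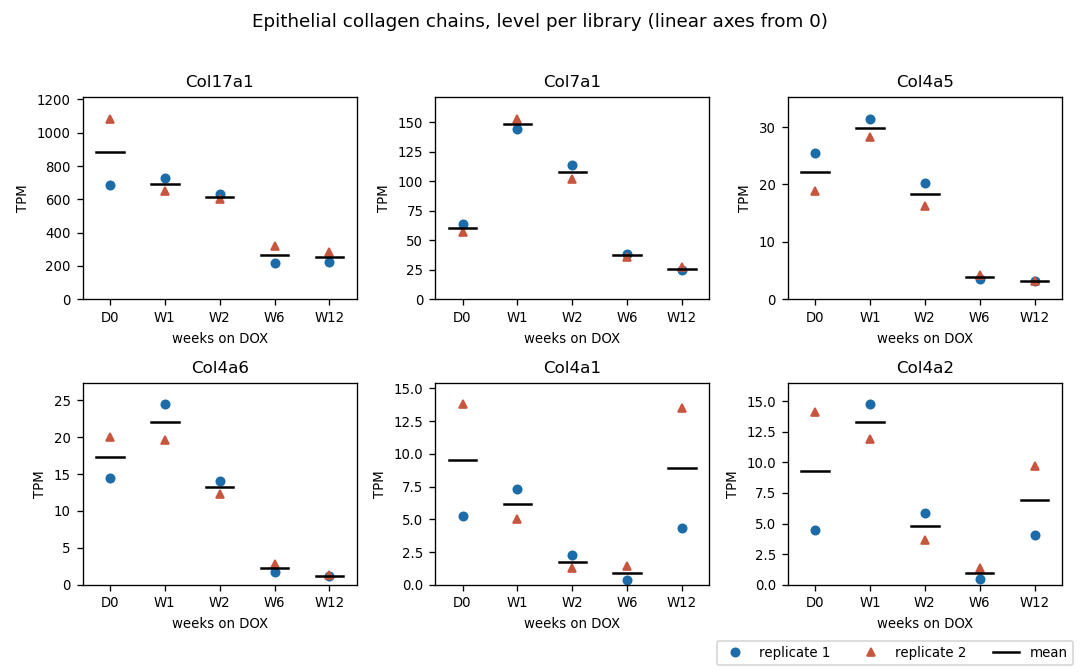
TPM of the 6 tested epithelial chains in each library by weeks on DOX, on linear axes from 0. Circles and triangles are the 2 replicates and bars their mean. *Col7a1* peaks at W1 (144 and 153 TPM), *Col4a5* and *Col4a6* stay under 5 TPM from W6 on, and *Col4a1* and *Col4a2* are higher again at W12 with the replicates apart.

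The type IV chains are encoded in pairs that lie head to head, each pair with its start sites close together. *Col4a1* and *Col4a2* make the protomer of most basement membranes. *Col4a5* and *Col4a6* make a protomer known from the epidermal and smooth muscle basement membranes, and *Col4a3* and *Col4a4* join *Col4a5* in kidney glomeruli and a few other sites. The distance between annotated 5′ ends on GRCm38 is 21 bases for *Col4a1* and *Col4a2* on chromosome 8, 72 bases for *Col4a3* and *Col4a4* on chromosome 1, and 1309 bases for *Col4a5* and *Col4a6* on chromosome X. *Col4a1* and *Col4a2* share 22 exonic bases on opposite strands, and whether the counting used strand is not given in the sources used here. *Col4a3* and *Col4a4* were listed at no more than 0.105 TPM in any library, so the 2 remaining pairs carried nearly all type IV RNA.

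*Col4a5* and *Col4a6* were both lowest in the late libraries. *Col4a5* was listed at 25.4 and 18.8 TPM at D0, 31.4 and 28.2 TPM at W1, 20.3 and 16.2 TPM at W2, 3.55 and 4.18 TPM at W6 and 3.19 and 3.24 TPM at W12. *Col4a6* was listed at 14.5 and 20.1 TPM at D0, 24.4 and 19.7 TPM at W1, 14.1 and 12.3 TPM at W2, 1.80 and 2.81 TPM at W6 and 1.14 and 1.34 TPM at W12. In both genes every library up to W2 lay above every library of W6 and W12. The log2 change of *Col4a5* was −2.24 ± 0.20 (SE, adjusted *P* = 0.000173) at W6 and −2.44 ± 0.20 (SE, adjusted *P* = 5.79e-05) at W12 against D0, and −1.98 ± 0.20 (SE, adjusted *P* = 0.00166) from W2 to W6. That of *Col4a6* was −2.47 ± 0.24 (SE, adjusted *P* = 0.00024) at W6, −3.01 ± 0.24 (SE, adjusted *P* = 4.72e-05) at W12 and −2.12 ± 0.24 (SE, adjusted *P* = 0.00205) from W2 to W6. These 6 calls were kept in all 20 alternatives. The ratio of *Col4a5* to *Col4a6* TPM was 1.76 and 0.936 at D0, 1.29 to 1.98 in the 6 libraries from W1 to W6, and 2.80 and 2.42 at W12. At W1 and W2 neither gene was called against D0.

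*Col4a1* and *Col4a2* were also called lower at W6, but not at W12. *Col4a1* was listed at 5.23 and 13.8 TPM at D0, 7.33 and 4.998 TPM at W1, 2.25 and 1.29 TPM at W2, 0.380 and 1.41 TPM at W6 and 4.31 and 13.5 TPM at W12. *Col4a2* was listed at 4.45 and 14.1 TPM at D0, 14.7 and 11.9 TPM at W1, 5.90 and 3.68 TPM at W2, 0.487 and 1.41 TPM at W6 and 4.06 and 9.71 TPM at W12. Replicates of D0 and of W12 stood far apart in both genes, with replicate 2 the higher each time. The log2 change at W6 against D0 was −2.39 ± 0.55 (SE, adjusted *P* = 0.0122) for *Col4a1* and −2.26 ± 0.52 (SE, adjusted *P* = 0.012) for *Col4a2*. Neither call held without D0 replicate 2, where the changes were −1.77 (adjusted *P* = 0.086) and −1.53 (adjusted *P* = 0.0739), or without W6 replicate 1 (adjusted *P* = 0.062 and 0.0602). Both were also lost with all genes above 0 TPM tested (adjusted *P* = 0.0615 and 0.0605) and in the fit of only the 4 libraries of D0 and W6 (0.0527 and 0.0699).

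From W6 to W12 the log2 change was 2.27 ± 0.55 (SE, adjusted *P* = 0.0231) for *Col4a1* and 1.96 ± 0.52 (SE, adjusted *P* = 0.031) for *Col4a2*. At W12 neither differed from D0 by the test (adjusted *P* = 0.869 and 0.669). With all genes above 0 TPM tested the calls from W6 to W12 were lost (adjusted *P* = 0.0842 and 0.105), as in the fit of only the 4 libraries compared (0.0717 and 0.0655). Without W12 replicate 2 the 2 changes were 1.54 (adjusted *P* = 0.133) and 1.42 (adjusted *P* = 0.18). Without W6 replicate 1 they were 1.86 (adjusted *P* = 0.111) and 1.61 (adjusted *P* = 0.137), and *Col4a2* also lost its call without W12 replicate 1 (2.50, adjusted *P* = 0.0599) or without either W1 replicate. The endothelial marker sum moved in the same libraries, at 3.81 and 6.28 TPM at W6 and 112 and 258 TPM at W12, and it too was higher in W12 replicate 2. *Pecam1*, which encodes CD31, was listed at 0.517 and 1.14 TPM at W6 and 26.1 and 59.8 TPM at W12. Endothelial cells make *Col4a1* and *Col4a2* in quantity, and the part of such RNA in the change was not tested.

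Within type IV RNA the make-up therefore changed. *Col4a5* and *Col4a6* held 80.4% and 58.2% of the type IV sum at D0, 71.6% and 73.8% at W1, 80.7% and 84.8% at W2, and 84.5% and 70.6% at W6. At W12 they held 33.9% and 16.4%, below all 8 earlier libraries. From W6 to W12 *Col4a5* and *Col4a6* were not called (adjusted *P* = 0.515 and 0.138), while *Col4a1* and *Col4a2* were higher. The part of endothelial RNA in this W12 share was not tested. The ratio of *Col4a1* to *Col4a2* was 1.18 and 0.978 at D0, 0.498 and 0.419 at W1, 0.382 and 0.350 at W2, 0.780 and 1.00 at W6, and 1.06 and 1.39 at W12. The 2 chains of the pair thus did not keep 1 ratio, with the lowest values in the 4 libraries of W1 and W2.

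The windows around the start sites of these 6 genes are shown because all were called lower at W6 against D0, while the type IV pairs parted at W12. From W2 to W6, *Col4a1* and *Col4a2* were not called (adjusted *P* = 0.485 and 0.0692). The sequences are RefSeq's on GRCm38.p6, from 250 bases before the start to 50 bases after it. In *Col17a1*, capitals mark the motif matches, and in *Col4a1* and *Col4a2* they mark the 78 bases that both windows share, read from opposite strands.
Col17a1, chr19:47691993-47692292, minus strand: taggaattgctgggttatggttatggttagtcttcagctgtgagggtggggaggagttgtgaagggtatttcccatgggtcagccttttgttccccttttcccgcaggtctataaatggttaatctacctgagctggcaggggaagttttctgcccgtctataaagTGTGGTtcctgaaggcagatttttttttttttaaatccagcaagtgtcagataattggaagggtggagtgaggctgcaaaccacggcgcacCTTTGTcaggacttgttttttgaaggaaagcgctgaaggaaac
Col7a1, chr9:108953336-108953635, plus strand: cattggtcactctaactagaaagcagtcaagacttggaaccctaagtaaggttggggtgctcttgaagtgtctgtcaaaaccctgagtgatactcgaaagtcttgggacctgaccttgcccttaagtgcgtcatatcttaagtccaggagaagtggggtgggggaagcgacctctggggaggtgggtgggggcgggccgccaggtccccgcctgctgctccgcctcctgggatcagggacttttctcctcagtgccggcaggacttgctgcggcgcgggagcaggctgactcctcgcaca
Col4a1, chr8:11312777-11313076, minus strand: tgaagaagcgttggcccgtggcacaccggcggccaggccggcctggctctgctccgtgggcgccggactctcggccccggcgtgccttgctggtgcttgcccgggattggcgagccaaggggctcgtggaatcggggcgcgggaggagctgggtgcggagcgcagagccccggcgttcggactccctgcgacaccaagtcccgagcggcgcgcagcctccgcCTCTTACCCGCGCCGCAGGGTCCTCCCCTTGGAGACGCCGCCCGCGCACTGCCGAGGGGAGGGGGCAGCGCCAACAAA
Col4a2, chr8:11312555-11312854, plus strand: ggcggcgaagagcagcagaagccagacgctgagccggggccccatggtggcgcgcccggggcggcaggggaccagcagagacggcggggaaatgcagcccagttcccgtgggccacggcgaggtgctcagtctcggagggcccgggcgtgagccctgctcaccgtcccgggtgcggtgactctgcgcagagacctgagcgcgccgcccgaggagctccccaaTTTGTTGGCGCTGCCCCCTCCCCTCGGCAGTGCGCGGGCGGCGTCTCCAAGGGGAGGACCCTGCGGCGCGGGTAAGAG
Col4a5, chrX:141475169-141475468, plus strand: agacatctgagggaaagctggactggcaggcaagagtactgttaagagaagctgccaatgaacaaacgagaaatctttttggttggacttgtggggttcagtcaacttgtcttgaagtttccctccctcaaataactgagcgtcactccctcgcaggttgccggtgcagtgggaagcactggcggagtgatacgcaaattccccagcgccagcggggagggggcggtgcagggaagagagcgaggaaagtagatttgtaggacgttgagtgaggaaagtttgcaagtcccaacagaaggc
Col4a6, chrX:141474027-141474326, minus strand: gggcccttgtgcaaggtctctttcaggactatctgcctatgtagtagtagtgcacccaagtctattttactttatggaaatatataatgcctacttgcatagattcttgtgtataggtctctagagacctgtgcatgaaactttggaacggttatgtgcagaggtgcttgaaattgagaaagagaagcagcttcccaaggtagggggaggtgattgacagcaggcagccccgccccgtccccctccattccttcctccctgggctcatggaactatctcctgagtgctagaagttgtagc
Both *Col4a1* and *Col4a2* windows are rich in G and C (74.0% and 73.7%), whereas those of *Col4a5* and *Col4a6* hold 52.7% and 48.3%, and *Col17a1* and *Col7a1* hold 46.3% and 58.7%. The windows were searched on both strands for the SOX core motifs ACAAT and ACAAAG, for TGTGGT, a core bound by RUNX factors, and for TGANTCA, the AP-1 site. The *Col17a1* window held TGTGGT at bases −84 to −79 and the reverse complement of ACAAAG at bases 8 to 13 from the start, and the other 5 windows held none of the 4 motifs. Of 32851 windows of this length, 31% hold ACAAT, 18.7% ACAAAG, 42.9% either of the 2, 16.8% TGTGGT and 7.81% TGANTCA. Windows were found for 35 of the 44 chains, 38 windows in all, of which 5 (13.2%) held either SOX core, 3 held TGTGGT and 1 held TGANTCA. A match here is a description of letters and not a site of binding.

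On the stromal side, *Col9a3* (chr2:180597790-180622189 on GRCm38, plus strand) showed the largest log2 change against D0 of the 13 tested chains at every timepoint. Its product is a chain of collagen IX, a FACIT collagen (fibril-associated, with an interrupted triple helix) best known for coating cartilage fibrils. *Col9a3* was listed at 0.218 and 0.0760 TPM at D0, 14.8 and 16.9 TPM at W1, 13.8 and 11.5 TPM at W2, 11.1 and 39.8 TPM at W6 and 21.02 and 28.2 TPM at W12. All 8 libraries after DOX lay far above both D0 libraries, and W6 replicate 2 stood above the rest. Against D0 the log2 change was 3.88 ± 0.46 (SE, adjusted *P* = 0.00163) at W1, 3.57 ± 0.46 (SE, adjusted *P* = 0.00173) at W2, 4.28 ± 0.46 (SE, adjusted *P* = 0.000448) at W6 and 4.47 ± 0.46 (SE, adjusted *P* = 0.000188) at W12, and these 4 calls were kept in all 20 alternatives. Over the alternatives the W6 change ranged from 3.41 to 6.49. *Col9a3* passed the filter on low values only through the libraries after DOX, where it is high. It therefore had to differ from D0, and its tests are not read against the share of all genes. No later step was called. *Col9a3* shares 234 exonic bases with the antisense gene *Tcfl5*, whose mean of 0.176 TPM was far lower.

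The partners of *Col9a3* were much lower. *Col9a2*, whose mean was under 1 TPM and which was chosen after its values were seen, like the low chains that follow, was listed at 0 in both D0 libraries, 0.497 and 0.404 TPM at W1, 1.13 and 0.920 TPM at W2, 2.77 and 1.76 TPM at W6 and 0.998 and 1.32 TPM at W12. *Col9a1* was at most 0.014 TPM at D0 and W1, and was listed at 1.43 and 0.244 TPM at W2, 0.164 and 4.14 TPM at W6 and 0.289 and 0.640 TPM at W12. *Col9a2* was thus present in every library after DOX, while the *Col9a1* replicates of W2 and of W6 stood far apart. With all genes above 0 TPM in the fit, *Col9a2* was called at W6 (adjusted *P* = 0.0094) and W12 (adjusted *P* = 0.0226), but not at W1 or W2, and *Col9a1* at no timepoint.

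Other chains of cartilage type were low or absent. *Col2a1*, the main fibrillar chain of cartilage and a known target of SOX9 there, reached no more than 0.201 TPM in any library, and *Col10a1* no more than 0.122 TPM. *Acan*, which encodes the cartilage proteoglycan aggrecan, reached 0.144 TPM. *Col11a1*, a minor fibrillar chain, was at most 0.0977 TPM up to W2, then 0.190 and 4.89 TPM at W6 and 1.56 and 1.74 TPM at W12, and W6 replicate 2 was again the highest. *Col27a1*, another fibrillar chain of cartilage, was listed at 0.0403 and 0.0906 TPM at D0, 0.546 and 0.802 TPM at W2, 1.70 and 1.37 TPM at W6 and 0.699 and 0.380 TPM at W12. In the fit of all genes above 0 TPM, *Col27a1* was called at W6 (adjusted *P* = 0.0212) and *Col11a1* at no timepoint. W6 replicate 2 also held *Dcn*, a fibroblast and tendon proteoglycan, at 51.2 TPM against 1.46 TPM in W6 replicate 1, and the melanocyte and Schwann cell marker sums were 12.1 and 2.56 TPM there against 4.79 and 0.858 TPM. The part of such RNA in these values was not tested.

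*Col8a1* rose early and was lower again at W12. Its product forms short-chain networks in vessel walls and in the cornea. It was listed at 2.85 and 2.46 TPM at D0, 13.8 and 23.3 TPM at W1, 34.6 and 25.8 TPM at W2, 25.9 and 15.3 TPM at W6 and 7.66 and 8.19 TPM at W12. Every library after DOX lay above both D0 libraries, and both W12 libraries lay below the 6 libraries of W1 to W6. The log2 change against D0 was 2.37 ± 0.30 (SE, adjusted *P* = 0.00229) at W1, 3.08 ± 0.30 (SE, adjusted *P* = 0.000506) at W2, 2.52 ± 0.30 (SE, adjusted *P* = 0.000694) at W6 and 1.29 ± 0.30 (SE, adjusted *P* = 0.00962) at W12. From W6 to W12 it was −1.23 ± 0.30 (SE, adjusted *P* = 0.0242). The W12 call against D0 was lost without D0 replicate 2 (1.21, adjusted *P* = 0.0519) and without either W12 replicate, and the last step was lost without W6 replicate 1 (−0.87, adjusted *P* = 0.112) or either W12 replicate. Its partner *Col8a2* was listed at 0.161 to 1.64 TPM over the 10 libraries.

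**Figure D4:**
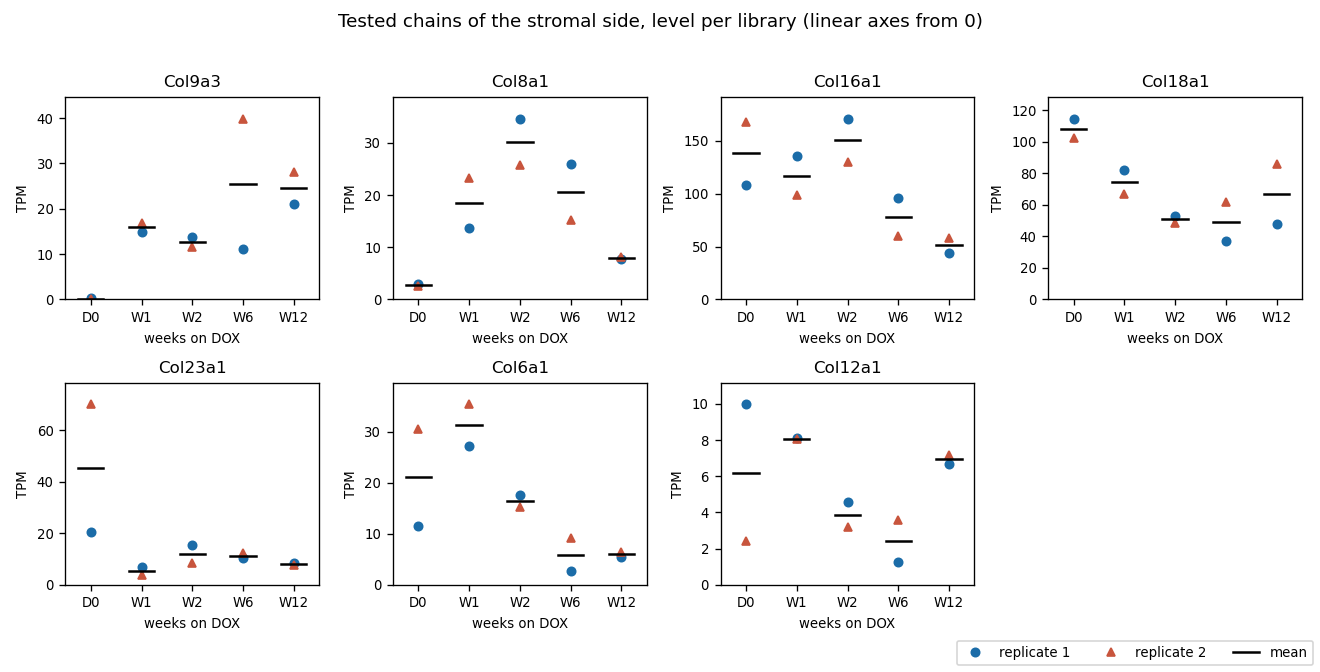
TPM of the 7 tested chains of the stromal side in each library by weeks on DOX, on linear axes from 0. Circles and triangles are the 2 replicates and bars their mean. *Col9a3* is under 0.22 TPM at D0 and 11.1 to 39.8 TPM after DOX, *Col8a1* peaks at W2, and the D0 replicates of *Col23a1* and *Col6a1* stand apart.

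*Col16a1* and *Col18a1* were the most abundant chains of the stromal side. Collagen XVI is a FACIT collagen found near the dermal-epidermal border, and collagen XVIII is a basement membrane proteoglycan whose end fragment is endostatin. *Col16a1* was listed at 108 and 168 TPM at D0, 136 and 98.6 TPM at W1, 171 and 130.3 TPM at W2, 95.7 and 60.1 TPM at W6 and 43.8 and 58.4 TPM at W12. Its replicates overlapped from D0 to W2, and only the W12 change against D0 was called, at −1.40 ± 0.30 (SE, adjusted *P* = 0.00654). That call was lost without W12 replicate 1 (−1.19, adjusted *P* = 0.0572).

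*Col18a1* was listed at 114 and 102 TPM at D0, 81.8 and 66.7 TPM at W1, 52.7 and 48.7 TPM at W2, 36.9 and 61.5 TPM at W6 and 47.9 and 86.0 TPM at W12. Both D0 libraries lay above the 8 later ones. Relative to D0 it changed by −1.08 ± 0.30 (SE, adjusted *P* = 0.0432) at W2 and −1.16 ± 0.30 (SE, adjusted *P* = 0.0191) at W6, and it was not called at W1 (adjusted *P* = 0.296) or W12 (adjusted *P* = 0.0757). Without D0 replicate 2 the changes were −1.16 (adjusted *P* = 0.0996) and −1.24 (adjusted *P* = 0.0632), and neither was called without D0 replicate 1. The W2 call was also lost without either W1 or either W2 replicate, and the W6 call without W6 replicate 1 (−0.80, adjusted *P* = 0.0934). In all, the W2 call was kept in 9 and the W6 call in 13 of 20 alternatives. With all genes above 0 TPM tested both were lost (adjusted *P* = 0.175 and 0.0797), as they were with the length correction (adjusted *P* = 0.057 and 0.0786), and the W2 call was also lost without the trend (adjusted *P* = 0.0557) and with the replicate block (adjusted *P* = 0.0546).

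*Col23a1*, which encodes a transmembrane collagen of epithelia, was highest at D0. It was listed at 20.6 and 70.1 TPM at D0, 6.85 and 3.78 TPM at W1, 15.49 and 8.33 TPM at W2, 10.3 and 12.3 TPM at W6 and 8.39 and 7.89 TPM at W12. The D0 replicates stood far apart, yet both lay above all 8 later libraries. The log2 change against D0 was −2.68 ± 0.51 (SE, adjusted *P* = 0.0135) at W1, −1.68 ± 0.51 (SE, adjusted *P* = 0.0361) at W6 and −2.10 ± 0.51 (SE, adjusted *P* = 0.0113) at W12, and the W2 change was not called (adjusted *P* = 0.061). Without D0 replicate 2 the change was −0.82 (adjusted *P* = 0.203) at W6 and −1.24 (adjusted *P* = 0.0524) at W12, while the W1 change was −1.82 (adjusted *P* = 0.0349). The W1 call was lost without W1 replicate 2 (−2.32), the W12 call without either W12 replicate, and the W6 call without any of the 4 libraries of W6 and W12. With all genes above 0 TPM tested, the W1, W6 and W12 calls were lost (adjusted *P* = 0.0894, 0.133 and 0.0555). In the fit of only the 4 libraries compared, those of W1 and W6 were lost (0.121 and 0.129). The W6 call was also lost with the replicate block (0.0527).

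*Col6a1*, a chain of the beaded filaments of collagen VI, was listed at 11.5 and 30.7 TPM at D0, 27.3 and 35.4 TPM at W1, 17.6 and 15.2 TPM at W2, 2.70 and 9.12 TPM at W6 and 5.53 and 6.50 TPM at W12. All 4 late libraries lay below the 6 earlier ones. Its log2 change against D0 was −1.70 ± 0.51 (SE, adjusted *P* = 0.0333) at W6 and −1.51 ± 0.51 (SE, adjusted *P* = 0.0408) at W12. Both calls depended on the fit: the W6 call was kept in 10 and the W12 call in 9 of 20 alternatives, and without D0 replicate 2 the changes were −1.03 (adjusted *P* = 0.215) and −0.83 (adjusted *P* = 0.262). The W6 call was lost without any 1 of the W1, W2 or W12 libraries or W6 replicate 1, and the W12 call without any 1 of the W1, W2 or W12 libraries. Collagen VI needs several chains, but *Col6a2* was listed at 0.0547 to 2.80 TPM and *Col6a3* at 0 to 0.632 TPM over the 10 libraries. Both were below *Col6a1* in every library. As a ratio, *Col6a2* came nearest in W12 replicate 2, which held 2.80 TPM of it against 6.50 TPM of *Col6a1*. As a difference it came nearest in W6 replicate 1, with 0.787 against 2.70 TPM.

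*Col12a1*, a FACIT collagen that binds type I fibrils, was listed at 9.96 and 2.43 TPM at D0, 8.10 and 8.06 TPM at W1, 4.56 and 3.19 TPM at W2, 1.24 and 3.57 TPM at W6 and 6.70 and 7.20 TPM at W12. The 2 D0 replicates alone spanned most of the range of the 10 libraries, and its *F* test was not called (adjusted *P* = 0.133).

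The other 31 chains had a mean under 1 TPM, and 20 of them stayed under 1 TPM in every library, with 0.791 TPM as their highest value. The interstitial chains of dermal fibroblasts were among the low ones: *Col1a1* reached 0.481 TPM, *Col1a2* 1.08 TPM and *Col3a1* 0.791 TPM. In all, 19 chains of the stromal side were listed at 0 in at least 1 library, and none of the epithelial side. With all genes above 0 TPM tested, *Col5a3*, *Col6a4*, *Col6a5* and *Col15a1* were also called higher and *Col5a1* lower at W12 against D0. *Col6a4* was listed at 0 in both D0 libraries and at 0.0858 and 0.0577 TPM at W12. *Col6a5* was likewise at 0 and then at 0.258 and 0.618 TPM. *Col5a3* was at 0 and 0.191 TPM at D0 and 0.987 and 1.11 TPM at W12. *Col5a1* was at 1.18 and 0.552 TPM at D0 and 0.117 and 0.106 TPM at W12. *Col15a1*, which encodes a multiplexin of vessel and muscle basement membranes, was at most 0.174 TPM up to W6 and 0.485 and 1.61 TPM at W12 (adjusted *P* = 0.039). *Col13a1*, a transmembrane collagen, was at 0 in the 4 libraries of D0 and W1 and at 0.186 and 0.538 TPM at W12, which was not called (adjusted *P* = 0.0987). Both were higher in W12 replicate 2, as was the endothelial marker sum, whose part in these values was not tested.

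**Figure D5:**
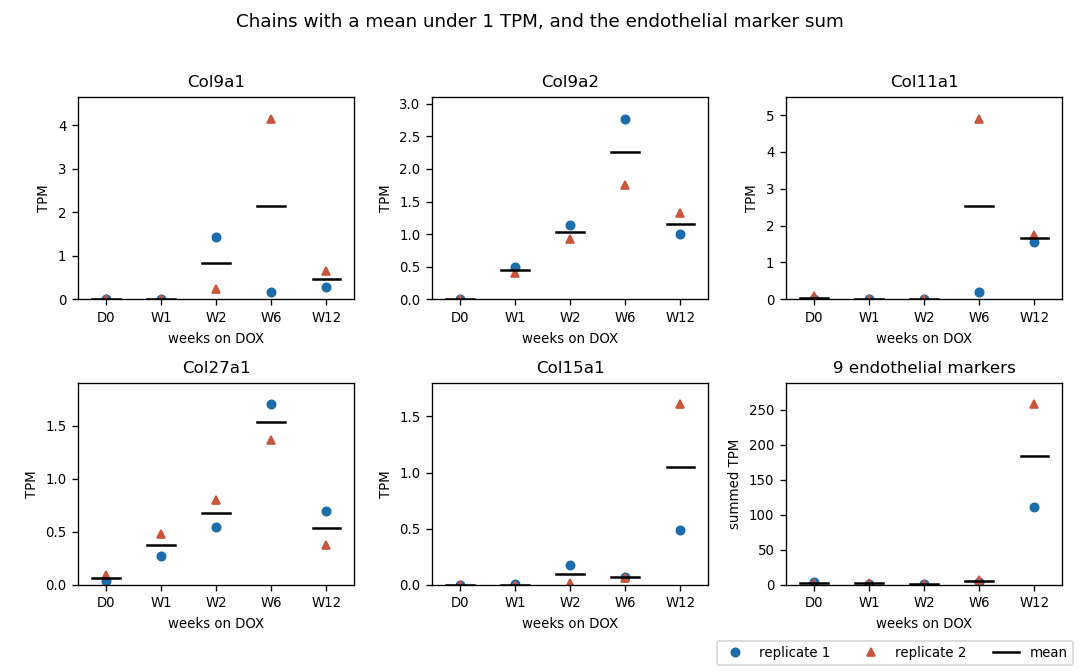
TPM of 5 chains with a mean under 1 TPM and the summed TPM of 9 endothelial markers in each library by weeks on DOX, on linear axes from 0. Circles and triangles are the 2 replicates and bars their mean. *Col9a1* and *Col11a1* are highest in W6 replicate 2, *Col9a2* and *Col27a1* at W6, and *Col15a1* and the endothelial sum at W12.

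Several partners of the epithelial collagens were also lower at W6. Of 8 genes of the hemidesmosome and its laminin, which anchor basal cells to the collagens described above, 7 were lower at W6 (14.1% of all genes) and 4 at W12 (25.1%). Without D0 replicate 2, 4 were lower at W6 (7.96%) and 4 at W12 (16.9%). The laminin chain *Lamb3* was listed at 272 and 478 TPM at D0 and 98.9 and 124 TPM at W12, a log2 change of −1.69 ± 0.25 (SE, adjusted *P* = 0.00114). The integrin chain *Itgb4* changed by −1.73 ± 0.28 (SE, adjusted *P* = 0.00158), and the linkers to keratin filaments *Plec* and *Dst* by −2.17 ± 0.36 (SE, adjusted *P* = 0.00201) and −1.31 ± 0.24 (SE, adjusted *P* = 0.00286). The laminin chain *Lama3* was listed at 43.9 and 65.4 TPM at D0, 19.8 and 18.4 TPM at W6 and 63.7 and 69.1 TPM at W12, and at W12 it was not called against D0 (adjusted *P* = 0.239). *Lama3* and the pair *Col4a1* and *Col4a2* were thus low at W6 and nearer to their D0 values at W12. Of 10 markers of basal keratinocytes, 7 were lower (14.1% of all genes) and 1 higher (18.3%) at W6, and 6 lower (25.1%) and 2 higher (17.9%) at W12. In the fit without D0 replicate 2, 5 markers were lower (7.96%) and 1 higher at W6, and 6 lower (16.9%) and 2 higher at W12. The counts of higher markers were near the share of all genes. *Itga6* and *Itgb4* belong to both lists, and both are among the genes lower at W6.

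The genes that make and export procollagen were called in both directions. Of 14 tested genes of 17 for prolyl and lysyl modification, 3 were higher (18.3% of all genes) and 5 lower (14.1%) at W6, and 4 higher (17.9%) and 3 lower (25.1%) at W12. Fewer of them, and fewer of all genes, were called without D0 replicate 2. The median log2 change of the 14 genes was −0.25 at W6 and −0.23 at W12, and −0.39 and −0.18 without that library. The largest called changes at W12 were 1.61 ± 0.30 (SE, adjusted *P* = 0.00355) for the chaperone *Fkbp10*, −1.25 ± 0.19 (SE, adjusted *P* = 0.00142) for the galactosyltransferase *Colgalt1*, 0.92 ± 0.31 (SE, adjusted *P* = 0.0413) for *Fkbp14*, whose call was lost in 10 of 20 alternatives (among them those without either D0 or either W1 replicate or W12 replicate 2), and 0.81 ± 0.14 (SE, adjusted *P* = 0.00262) for the prolyl isomerase *Ppib*. *Fkbp10* and *Fkbp14*, 2 of the 4 higher genes, passed the filter on low values only through W12, where they are high, so their tests and that count are not read against the share of all genes. Of 10 genes for folding and export, 2 were higher and 2 lower at W6, and 1 was higher and 4 lower at W12, beside the same shares of all genes. Again fewer of them, and fewer of all genes, were called without D0 replicate 2. Their median log2 change was −0.14 at W6 and −0.36 at W12, and −0.05 and −0.13 without that library. *Serpinh1*, the collagen-specific chaperone HSP47, was listed at 132 and 139 TPM at D0, 109.5 and 107 TPM at W1, 76.4 and 70.1 TPM at W2, 28.9 and 35.1 TPM at W6 and 45.2 and 57.6 TPM at W12. Its level was thus lowest at W6 and below both D0 libraries at every later timepoint, and its log2 change at W12 was −1.39 ± 0.16 (SE, adjusted *P* = 0.00032). The transcription factor *Creb3l1*, which drives collagen genes in other cells, changed by −1.10 ± 0.23 (SE, adjusted *P* = 0.00548). The coat proteins *Sec13* and *Sec31a* changed by 0.82 ± 0.20 (SE, adjusted *P* = 0.0119) and −0.62 ± 0.16 (SE, adjusted *P* = 0.0157), and *Sec31a* lost its call without D0 replicate 2 (adjusted *P* = 0.0799) or W12 replicate 1 and *Sec13* without W12 replicate 2 (adjusted *P* = 0.0715).

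Of 15 genes for procollagen processing and crosslinking, 6 were tested. At W6, 1 was higher (18.3% of all genes) and 1 lower (14.1%), and at W12, 3 were higher (17.9%) and 1 lower (25.1%), with the same counts without D0 replicate 2. *Adamts14*, a protease that removes the amino end of procollagen, was listed at 22.6 and 29.6 TPM at D0, 1.56 and 1.22 TPM at W1 and 2.46 and 1.70 TPM at W12, a change of −3.13 ± 0.26 (SE, adjusted *P* = 5.9e-05). *Pcolce2*, an enhancer of the protease at the other end, was at most 0.325 TPM up to W2 and 12.3 and 15.9 TPM at W12, a change of 3.88 ± 0.36 (SE, adjusted *P* = 0.000109). The crosslinking enzymes *Tgm2* and *Pxdn*, of which *Pxdn* bonds type IV collagen, changed by 2.98 ± 0.38 (SE, adjusted *P* = 0.000572) and 2.00 ± 0.35 (SE, adjusted *P* = 0.00258). The gene higher at W6 was *Pcolce2*, and the 3 higher at W12 were *Pcolce2*, *Tgm2* and *Pxdn*. *Pcolce2* passed the filter on low values only through W6 and W12, and *Tgm2* and *Pxdn* only through W12, so their tests and these counts of higher genes are not read against the share of all genes. Vessels express both *Tgm2* and *Pxdn*, and the part of the endothelial RNA described above in these values was not tested. The enzyme *Lox* was at most 0.161 TPM.

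Of 12 collagen receptors and uptake genes, 7 were tested, with 1 higher (18.3% of all genes) and 2 lower (14.1%) at W6 and 3 higher (17.9%) and 2 lower (25.1%) at W12. When D0 replicate 2 was left out, fewer of them, and fewer of all genes, were called at W6. The median log2 change of the 7 genes was −0.32 at W6 and 0.27 at W12, and −0.30 and 0.39 without that library. The receptor kinase *Ddr1*, typical of epithelia, was listed at 161 and 223 TPM at D0 and 39.7 and 50.1 TPM at W12, a change of −2.06 ± 0.22 (SE, adjusted *P* = 0.000199). *Ddr2*, typical of mesenchymal cells, was listed at 3.16 and 2.32 TPM at D0 and 13.4 and 8.68 TPM at W12, a change of 1.67 ± 0.34 (SE, adjusted *P* = 0.00478). The 2 receptors thus changed in opposite directions, with *Ddr1* still the higher. *Cd44* and *Itgb1* changed by 0.79 ± 0.14 (SE, adjusted *P* = 0.00282) and 0.78 ± 0.18 (SE, adjusted *P* = 0.0089), and *Itgb1* lost its call without W12 replicate 2 (0.63, adjusted *P* = 0.0653).

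Transcript length moved with the change across genes. The Spearman correlation of length with log2 change over 13099 genes was −0.189 at W6 and −0.218 at W12 against D0, as a description over genes of the same libraries, and the tested chains had a median transcript length of 2512 bases against 1250 for all genes. Each length was the median over all annotated transcripts of a gene. It was 758 bases for *Col17a1*, 674.5 for *Col7a1*, 647 for *Col4a1* and 921 for *Col4a2*, but 4898 for *Col4a5* and 3092 for *Col4a6*. A correction for length thus treated the first of these as short, and the part of length in their changes was not tested. With the correction, the chains called were 10 at W6 and 8 at W12, against 11 and 9 without it. The share of all genes called with the correction was not computed, so these counts are not read against it.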

How the data were processed

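The time course comprised 10 RNA-seq libraries of sorted EpdSCs, 2 at each of D0, W1, W2, W6 and W12, grouped by the sample labels. The authors deposited TPM per gene, made with Salmon 1.4.0 on an index of GRCm38 that included the transgene and summed to genes with Tximport 1.12.3. The TPM of each library sum to 1000000, so the depth and the counting error of each library are unknown. The 4 placode libraries came only as a table of the authors' own comparison (fold changes and *P* values), which was not used.

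The 13110 genes whose 10 libraries averaged 1 TPM or more were tested on log2(TPM + 1). limma 3.58.1 (R 4.3.3) fitted 1 mean per timepoint to the 10 libraries together, with eBayes and trend, and *P* values were adjusted by Benjamini-Hochberg over all genes tested, with a threshold of 0.05. The Wald test on counts used by the authors could not be run on TPM. The script for this fit was tested on simulated data with known changes.

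The collagen chains, their 2 sides and the 12 lists of other genes were chosen with earlier results of these data known. Named with values were all epithelial chains, every other tested chain, and, of each pathway list, the called genes with the largest change at W12, at most 4. Other genes were named after their values were seen. Values of 1 gene of these lists are not reported here. Gene positions and transcript lengths are from GENCODE M21 on GRCm38, promoter windows from RefSeq on GRCm38.p6.

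Same-numbered libraries are different mice, and the replicate numbers were not taken as pairs. Alternatives were quantile normalization, median-ratio scaling, a pseudocount of 0.1, a filter at 5 TPM, a filter at any value above 0, eBayes with no trend, a replicate block, a length correction, both of these together, only the 4 libraries of a comparison, and each library left out. Crossed replicate numbers were added after seeing the data. Tables and figures were made in Python 3.11.15 (matplotlib 3.10.9, pandas 2.3.3, numpy 2.4.6). Counts of the gene lists without D0 replicate 2 were added after the data were seen.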

Additional observations from a re-analysis of the deposited data

How the results depend on the processing

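Of the 36 called changes of single chains, 18 were kept in all 20 alternatives, 21 in the 10 that leave no library out and 19 without each of the 10 libraries in turn, and none changed sign. Of the 20 pathway genes named, 4 lost their call in some alternative. In the fit of only the 4 libraries compared, 5 chains were called at W6 against D0 and 0 from W6 to W12, where the fit over all 10 libraries called 11 and 4, and with all genes above 0 TPM tested 2 were called from W6 to W12. The fit of 4 libraries has fewer of them to estimate the spread. For the other changes the cause was not tested.

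With each library left out in turn, 3 to 4 chains were called at W1, 2 to 5 at W2, 7 to 11 at W6 and 5 to 10 at W12 against D0, 3 to 7 from W2 to W6, 0 to 5 from W6 to W12 and 9 to 12 by the *F* test. The count at W2 was 2 without W2 replicate 1. At W6 it was 7 without D0 replicate 2 or W6 replicate 1, and at W12 it was 5 without W12 replicate 1. The step from W2 to W6 had 7 calls without either D0 replicate. From W6 to W12 it was 0 without W6 replicate 1 or W12 replicate 2, 1 without W12 replicate 1 and 2 without either W1 replicate.

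Same-numbered libraries of D0 and of W1, W2, W6 and W12 deviated with correlations of −0.11, −0.07, −0.13 and 0.09, and the numbers do not pair the samples. With the replicate block, 4, 3, 10 and 9 chains were called at W1, W2, W6 and W12 against D0, 4 from W2 to W6, 3 from W6 to W12 and 11 by the *F* test. With crossed numbers, 4 were called at W1, 12 at W6 and 4 from W6 to W12.

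Median-ratio scaling moved the median change of all genes from W6 to W12 from −0.16 to −0.01, and of the genes called in that step 33.0% were higher without it and 55.0% with it (45.8% with quantile normalization). At W1 against D0 these shares were 58.6%, 47.4% and 50.4%. From W6 to W12 the chains called were 2 higher and 2 lower, and with either scaling 2 higher and 1 lower. Counting types XVIII and XXIII as epithelial gave mean epithelial shares of 87.03%, 83.49%, 78.94%, 71.64% and 77.62% at D0, W1, W2, W6 and W12. With no depth in TPM, the smallest change that could be seen in the 31 low chains is unknown.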
